A study of Mus musculus with 9 samples.

Results

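Hind paw skin was compared with the dorsal root ganglia (DRG), the paired clusters of sensory neuron cell bodies beside the spinal cord, in mice given paclitaxel and an antagonist of the lymphotoxin beta receptor (LTβR). The comparison took every library labelled Paw and every library labelled DRG, 3 of each, which is 6 of the 9 RNA sequencing libraries of the series. The other 3, from lumbar spinal cord, entered the filter on low counts, the scaling and the estimate of the spread between libraries, but not the contrast.

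All 9 libraries came from male C57 mice of 8 to 12 weeks that had received the same drugs. Paclitaxel (PTX), a chemotherapy drug that binds microtubules and is known for painful neuropathy, was given intraperitoneally in 2 injections of 2 mg/kg. The antagonist, 15 µg at each site, went into the hind paw and intrathecally. The titles place it on days 1 and 4, while the design text places it between the paclitaxel injections and 1 day after them. Tissue was taken 6 days after the last paclitaxel injection, as punch biopsies of the hind paw and as ganglia L3 to L5 of both sides. Mice given control antibody and mice not given these drugs are not analysed here, so every comparison below is between tissues of treated mice, and a tissue difference and a response to the drugs that differs by tissue cannot be told apart. The labels do not say whether the numbered samples came from separate mice, and p-values therefore measure the spread between these samples.

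The skin of the paw is a layered epidermis of keratinocytes that fill with keratin, crosslink a cornified envelope and shed, over a collagen-rich dermis with vessels, fat, glands and immune cells. Sensory neurons of the L3 to L5 ganglia send one branch of their axon into that skin and the other into the spinal cord, and they are wrapped by satellite glia and myelinating Schwann cells. The endings in the skin hold little RNA of their own, while the cell bodies in the ganglion hold most of it. Skin cells make growth factors that the neurons bind through receptors, and the neurons release peptides that bind receptors on skin cells and vessels.

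Reads assigned to genes numbered 15537545 to 16757430 per paw library and 21316707 to 23229724 per DRG library. Levels are given as CPM (counts scaled to a common library size) on TMM-scaled library sizes, and 3 reads correspond to 0.177 to 0.185 CPM in paw and 0.134 to 0.149 CPM in DRG. Reads not assigned to a gene made up 58.1 to 59.3% of the paw totals and 42.9 to 43.3% of the DRG totals, mostly reads that matched several places. Genes with near-identical copies, such as keratins, late cornified envelope genes, tubulins and class II histocompatibility genes, are uncertain for that reason. In bulk tissue, fewer cells of a type and less RNA per cell cannot be told apart.

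Of 22609 genes, 16091 passed the filter on low counts. At a Benjamini-Hochberg adjusted p under 0.05 in edgeR's quasi-likelihood test, 12946 differed between the tissues (80.5% of those tested). Of these, 6386 were higher in paw (39.7%) and 6560 were lower (40.8%). A difference that was called and at least 4-fold in size was found for 2335 genes in the paw direction (14.5%) and for 2657 in the DRG direction (16.5%). Every count of list members below is to be read against these shares. The median log2 fold change, paw minus DRG throughout, was -0.02 over all genes tested, and it moved to 0.10 under upper quartile scaling. DRG 2 and DRG 1 carried muscle transcripts that DRG 3 hardly had, as described further on. Without both of them, in a fit where DRG 3 stands alone for DRG and is assumed to vary like the paw and spinal cord libraries, 2486 genes were called at least 4-fold higher and 2679 at least 4-fold lower in paw, of which 2238 and 2558 were among the genes called with all libraries.

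**Figure D1:**
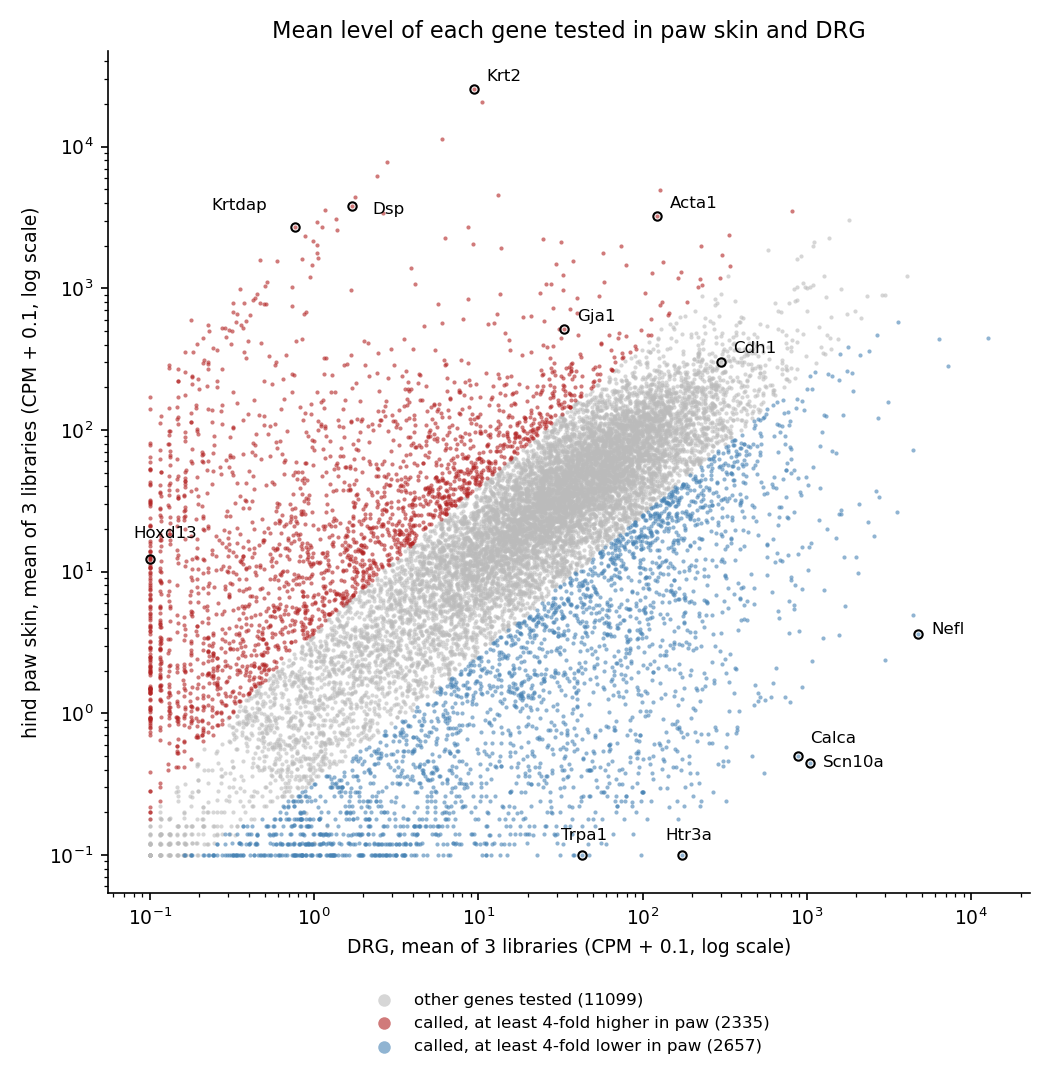
Mean level of each of the 16091 genes tested in DRG (x axis) and paw skin (y axis), in CPM plus 0.1 on log scales, as the mean of 3 libraries each. Red points are the 2335 genes called at least 4-fold higher in paw, blue points the 2657 called at least 4-fold lower, and circled genes are named in the text.

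The genes that stood apart most were those of the cornifying epidermis on the paw side and those of the nociceptor, the pain-sensing neuron, on the DRG side. Among called genes whose higher tissue reached 10 CPM and whose lower tissue held 10 reads, Gm94 led in paw at a log2 fold change of 12.07 ± 0.32 (SE). It was followed by Krtdap, a secreted keratinocyte differentiation protein, which had 2657, 2853 and 2609 CPM in paw against 0.760, 0.290 and 0.941 CPM in DRG. Mt4, a metallothionein of stratified epithelium, and the late envelope gene Lce1a1 came next, then Krt24, Fam25c, Lgals7, Slurp1, Krt5 and Wfdc12. In the DRG direction Scn10a led, the sodium channel Nav1.8 of nociceptors. It had 1044, 789 and 1303 CPM in DRG and 0.239, 0.555 and 0.236 CPM in paw, a log2 fold change of -11.55 ± 0.56 (SE). Calca, Scn11a, Nefl, Nefh, Cpne6, Ppp1r1c, Grik1, Nefm and Ctnna2 followed. Because these 20 genes were picked by the size of their difference, the lack of overlap between their paw and DRG libraries adds no support.

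Among genes called at least 4-fold apart, those that took the most reads were Krt2, Krt10, Krt1, Hrnr and Calm4 in paw. Krt2 and Krt10, keratins of the layers above the basal cells, had 28584, 24277 and 23550 CPM and 25791, 17216 and 18919 CPM in the 3 paw libraries. In DRG the genes with the most reads included Mbp and Pmp22, proteins of compact myelin, and the neurofilament subunits Nefl and Nefm. Mbp stood at 8556, 6333 and 6687 CPM in DRG and at 270, 270 and 313 CPM in paw. Per kilobase of the longest coding transcript, Nefl gave 1414 ± 120 CPM per kb in DRG (mean ± SD, n = 3) and Krt2 gave 9747 ± 1041 CPM per kb in paw.

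The lists of the cornified envelope, keratins and skin proteases had the medians farthest from 0. All 28 tested genes of the cornified envelope list were higher in paw, 27 of them at least 4-fold, with a median log2 fold change of 11.02. Loricrin (Lor), the main protein of the envelope, had 2059, 2284 and 2095 CPM in paw against 0.983, 0.531 and 1.14 CPM in DRG. Involucrin (Ivl), an early envelope scaffold, stood at 128, 121 and 120 CPM in paw and had 3 reads in all of DRG, with a 95% counting interval of the ratio from 888 to 12597. Hornerin (Hrnr), a filaggrin-like protein, was at 8676, 8220 and 6578 CPM in paw. The late envelope genes Lce1b and Lce1c, which differed most with Krtdap, had 617, 651 and 511 CPM and 573, 595 and 474 CPM in paw and 0.179 CPM or less in each DRG library. The exception in size was Tchh, trichohyalin of the hair root sheath, at 24.2, 9.32 and 10.7 CPM in paw and 5.36, 3.86 and 4.56 CPM in DRG. All 14 tested keratins were at least 4-fold higher in paw, with a median of 10.66. Krt9, the keratin of palm and sole skin, had 3688, 2085 and 2021 CPM in paw against 1.34, 1.25 and 1.24 CPM in DRG. The stress keratins were present at lower levels, Krt6a at 117, 85.0 and 87.5 CPM and Krt16 at 30.6, 22.2 and 33.3 CPM in paw. Krt15, a basal layer keratin, had 242, 182 and 236 CPM in paw and 3 reads in DRG. Values of the fitted folds in these lists rest on DRG levels near the floor, and with genes at 0 reads set to their lower bound the envelope median was 10.80.

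Promoters of the envelope genes are shown because several of them hold the same short motifs. RefSeq promoters (GRCm38.p6, 250 bases before to 50 after the start) were found for 25 of the 28 tested envelope genes. The TATA box motif TATAAA, on the gene's strand and starting 20 to 40 bases before the start, was in 9 of these 25 genes (36.0%) and in 2.41% of all 27025 genes of the promoter table. The AP-1-like motif TGANTCA, in which N is any base, was searched on both strands and was in 9 of the 25 (36.0%) against 8.97% of all genes. It was in 6 of 16 genes (37.5%) of the list of skin proteases and inhibitors. Many of the envelope genes are neighbours on mouse chromosome 3 and belong to related families, so they are not independent. A match describes these letters and is not a site in use. The same shares over all genes called 4-fold higher or lower are not given, because 74.4 and 75.0% of those genes had a promoter in the table, under the 80% set for such a check. The 130 bases before the start are printed for 4 envelope genes, with TATAAA and TGANTCA in capitals.
Lor (GRCm38.p6, chr3:92083143-92083272, minus strand): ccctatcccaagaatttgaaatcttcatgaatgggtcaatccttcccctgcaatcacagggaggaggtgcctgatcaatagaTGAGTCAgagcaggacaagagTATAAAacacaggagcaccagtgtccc
Ivl (chr3:92573736-92573865, minus strand): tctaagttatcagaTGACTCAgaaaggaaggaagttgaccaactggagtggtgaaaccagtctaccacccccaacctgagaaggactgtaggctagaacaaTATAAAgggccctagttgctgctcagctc
Krtdap (chr7:30787775-30787904, plus strand): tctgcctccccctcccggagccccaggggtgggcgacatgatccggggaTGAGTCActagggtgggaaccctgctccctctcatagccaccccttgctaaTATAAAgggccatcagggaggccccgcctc
Rptn (chr3:93393569-93393698, plus strand): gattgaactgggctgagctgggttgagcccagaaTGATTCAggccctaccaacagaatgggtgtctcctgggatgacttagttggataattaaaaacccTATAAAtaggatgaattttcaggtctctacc
The TATA motif starts 27 bases before the start in Lor, 29 in Ivl, 30 in Krtdap and 31 in Rptn. The TGANTCA match lies 48, 116, 81 and 96 bases before it, and in Rptn it reads TGATTCA.

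The other genes that build the epidermis went the same way, with exceptions in adhesion. Of 25 adhesion genes, 21 were higher in paw and 1 was lower, with a median of 7.00. The desmosome genes Dsp, Pkp1, Dsg1a and Dsc1 were all far apart, with Dsp, which ties keratin to the junction, at 5205, 3380 and 2875 CPM in paw and 2.23, 0.965 and 1.58 CPM in DRG. Perp, a desmosome protein that Trp63 induces, took the most reads of the list, at 5388, 4204 and 3980 CPM in paw and 15.4, 12.3 and 11.7 CPM in DRG. E-cadherin (Cdh1), the adherens junction protein of epithelia, did not differ by the test. It had 358, 282 and 268 CPM in paw and 310, 249 and 339 CPM in DRG, and the groups overlapped (log2 fold change 0.02 ± 0.57 SE, adjusted p = 0.982). The hemidesmosome integrins Itga6 and Itgb4 were not called either, Itgb4 at 283, 262 and 233 CPM in paw and 396, 292 and 267 CPM in DRG. Dst, the cytoskeletal linker dystonin, was the member lower in paw, at 369, 427 and 352 CPM against 1196, 993 and 1478 CPM. Their partner in the hemidesmosome, Col17a1, was far higher in paw, at 703, 668 and 614 CPM against 0.804, 0.869 and 0.644 CPM.

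All 17 epidermal transcription factors were higher in paw, 15 of them at least 4-fold (median 6.63). Trp63, the regulator of stratified epithelium, had 270, 235 and 221 CPM in paw and 0.983, 1.30 and 1.29 CPM in DRG. Klf4 stood at 1120, 734 and 675 CPM in paw and at 8.80, 8.35 and 8.37 CPM in DRG. Esrp1, an epithelial splicing factor, differed most, at a log2 fold change of 10.97 ± 0.26 (SE). Ovol1 and Gata3, regulators of keratinocyte differentiation, followed, at 33.5, 37.1 and 80.9 CPM and 35.3, 36.9 and 38.2 CPM in paw and 0.149 CPM or less in each DRG library. Hopx differed least, with 205, 173 and 175 CPM in paw and 127, 162 and 134 CPM in DRG, and its call was lost in 3 of the 6 fits that each left out 1 library.

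Among 24 genes of barrier lipid synthesis, 20 were higher in paw and 1 lower (median 4.37, or 6.03 without DRG 1). The lipoxygenases Alox12b and Aloxe3, which prepare ceramides for the envelope, had 531, 420 and 370 CPM and 253, 231 and 184 CPM in paw, with all DRG libraries under 1 CPM. The largest differences were those of Lipm, Acer1 and Sdr9c7, an epidermal lipase, a ceramidase and a dehydrogenase, with Acer1 at 306, 269 and 236 CPM in paw and 3 reads in DRG. Degs2, a ceramide-forming enzyme, was the member lower in paw, at 1.02, 0.802 and 1.41 CPM against 2.32, 1.69 and 2.28 CPM. Elovl4, the elongase of very long fatty acids, had 1646, 1428 and 1277 CPM in paw but also 73.4, 82.6 and 81.6 CPM in DRG. Elovl1 and Ugcg, which act in many tissues, were not called, and Elovl1 stood at 233, 175 and 197 CPM in paw and 228, 169 and 186 CPM in DRG. All 19 proteases and inhibitors of the skin were at least 4-fold higher in paw (median 8.29). They included the desquamation protease Klk7 at 613, 602 and 527 CPM and its inhibitor Spink5 at 1312, 927 and 859 CPM, both under 1 CPM in every DRG library. Serpinb7 and the channel-activating protease Prss8 differed most, with Prss8 at 78.8, 74.9 and 63.5 CPM in paw and 1 read in DRG.

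**Figure D2:**
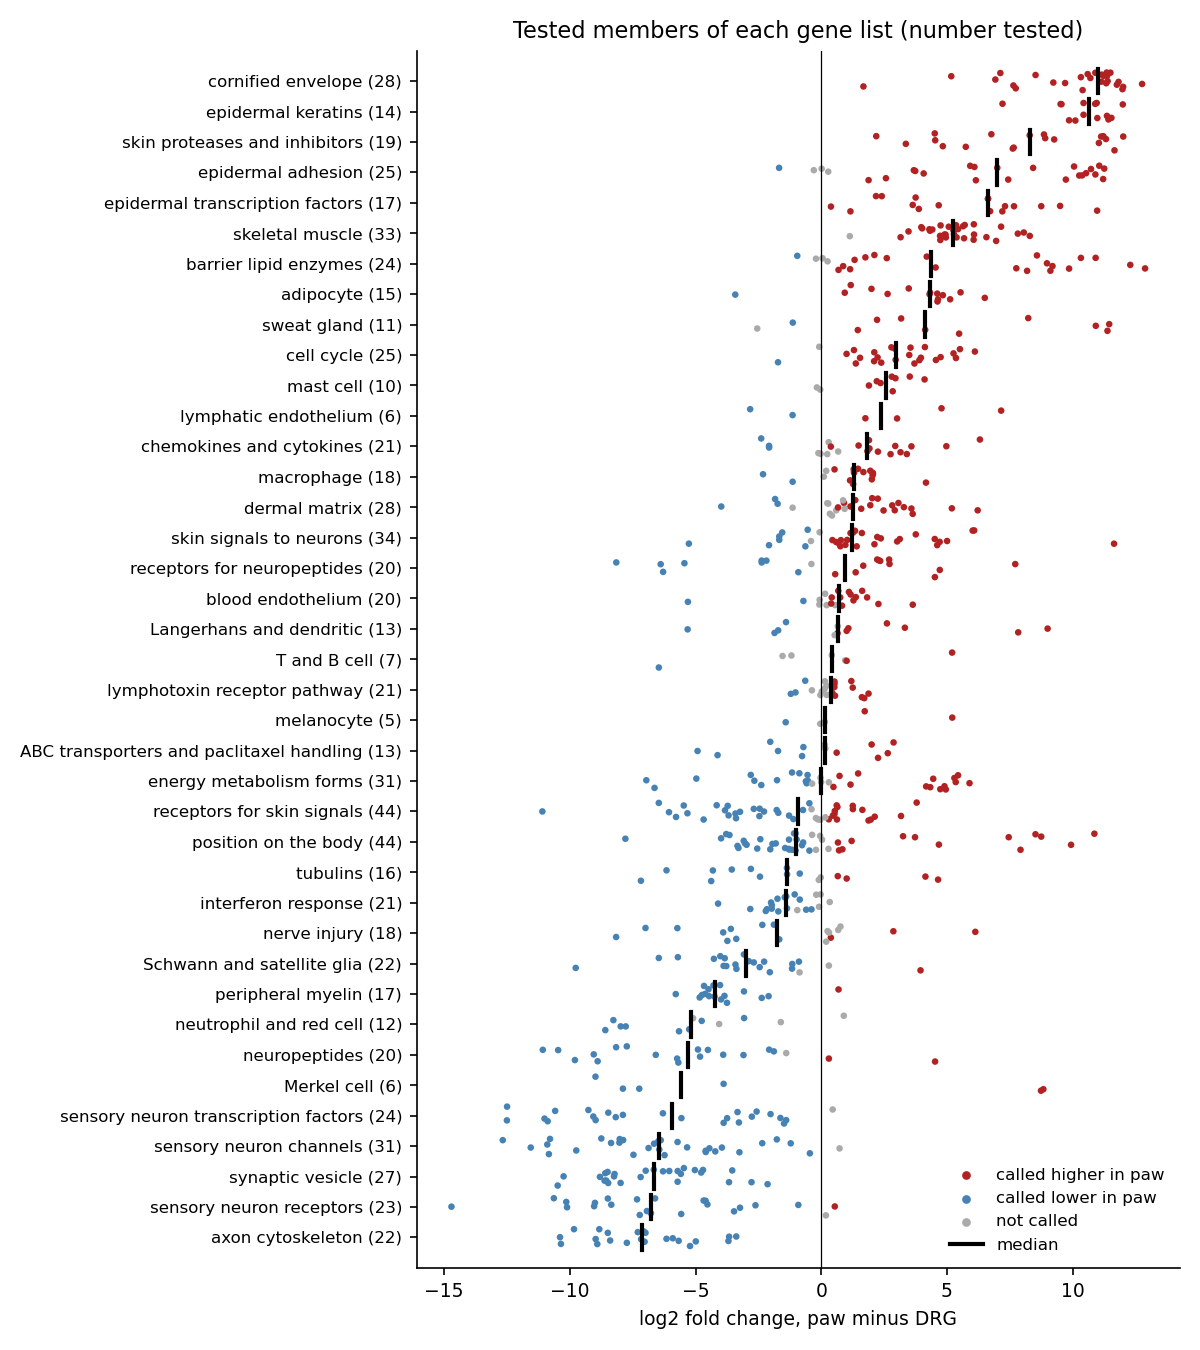
Fitted log2 fold change (x axis, paw minus DRG) of every tested member of the 39 gene lists, 1 list a row with its number tested, ordered by the median (black bar). Red and blue points were called higher and lower in paw, grey points were not called, and genes with 0 reads in 1 tissue are drawn at their fitted value, which is no bound. Envelope genes lie at the top with a median of 11.02 and axon cytoskeleton genes at the bottom with a median of -7.11.

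Genes of the dermal matrix, which the connective tissue of a ganglion also uses, were closer to 0 than the epidermal lists. Of 28 dermal matrix genes, 17 were higher in paw and 3 lower, with a median of 1.26. Collagen Col1a1 was not called at 544, 751 and 557 CPM in paw and 538, 343 and 343 CPM in DRG (log2 fold change 0.60 ± 0.39 SE, adjusted p = 0.185), and was called higher when only the 6 paw and DRG libraries were fitted (adjusted p = 0.0248). Col3a1 was higher in paw, at 1463, 2043 and 1606 CPM against 434, 228 and 256 CPM. Dpt and Aspn, matrix proteins of the dermis, differed most, with Dpt at 92.4, 112 and 111 CPM in paw and 1.74, 1.30 and 1.14 CPM in DRG. Twist2, a fibroblast transcription factor, had 4.01, 5.37 and 6.18 CPM against 0.357, 0.627 and 0.248 CPM. Decorin (Dcn) was not called, at 1518, 1723 and 1791 CPM in paw and 1122, 822 and 811 CPM in DRG, and was called higher in the fit of the 6 libraries (adjusted p = 0.000907), in which 20 members were higher and 4 lower. The 3 members lower in paw were Ogn, Sparc and Mfap5. Ogn, the proteoglycan osteoglycin, stood at 30.8, 37.8 and 36.5 CPM in paw and 665, 479 and 510 CPM in DRG. DRG 1 was the highest of the DRG libraries for Col1a1, Col3a1, Ogn and Mfap5.

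Fat genes were higher in paw for 14 of 15 tested members, among them Adipoq, the adipocyte hormone adiponectin, at 56.9, 48.9 and 60.0 CPM against 1.97, 1.45 and 1.29 CPM. Car3, a carbonic anhydrase that muscle expresses too, differed most at 1712, 2248 and 2723 CPM against 25.3, 39.3 and 8.86 CPM, with DRG 2 again the highest ganglion, and Plin1, which coats fat droplets, had 18.8, 19.3 and 22.3 CPM against 0.402, 0.676 and 0.198 CPM. The exception was Slc36a2, a proton-coupled amino acid transporter, at 16.2, 17.3 and 16.1 CPM in paw and 216, 144 and 170 CPM in DRG. Of 20 genes of blood endothelium, 13 were higher in paw and 2 lower (median 0.72), and 3 of the 20 differed at least 4-fold. Plvap, found in vessels with fenestrae, was higher in paw at 94.2, 122 and 120 CPM against 8.67, 9.75 and 8.47 CPM. Pecam1 and Tek, adhesion and angiopoietin receptors of endothelium, were higher in paw too, Pecam1 at 140, 154 and 156 CPM against 34.4, 29.4 and 29.2 CPM. The water channel Aqp1, which took the most reads of the list, was not called. Slco1c1 and Abcb1a, transporters of the blood-brain and blood-nerve barriers, were the 2 that were lower. Slco1c1 had 0.0599, 0.309 and 0.294 CPM in paw and 11.3, 7.19 and 8.32 CPM in DRG. Claudin-5 (Cldn5), a tight junction gene of vessels, was not called at 31.1, 39.8 and 41.7 CPM in paw and 42.0, 37.7 and 38.0 CPM in DRG. Of 6 tested genes of lymphatic vessels, 4 were higher in paw, among them the hyaluronan receptor Lyve1 (32.1, 40.7 and 40.8 CPM against 5.63, 3.91 and 4.46 CPM), Mmrn1 and Prox1. Reln, which neurons and glia also use, and Pdpn were lower, Reln at 29.6, 34.1 and 34.3 CPM against 279, 164 and 252 CPM. Summed over the list, which Reln dominates in DRG, the paw level was 0.430 of the DRG level.

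Of 11 sweat gland genes, 9 were higher in paw. Foxi1, a factor of acid-secreting cells, had 8.62, 10.4 and 19.0 CPM in paw and 0 reads in DRG, which puts it at least 268-fold higher against a floor of 3 reads over the DRG group. The water channel Aqp5 had 276, 248 and 196 CPM in paw and 0.0447, 0.145 and 0.0495 CPM in DRG. The proton pump subunit Atp6v1b1 had 360, 304 and 276 CPM in paw and 0, 0.0965 and 0.248 CPM in DRG. Slc12a2, the chloride carrier of secretory cells, was higher in paw and took the most reads of the list, while Eda, a signal of gland development, was lower at 7.84, 7.53 and 6.83 CPM against 18.5, 14.4 and 15.7 CPM, and the chloride channel Cftr had 0 reads in paw and was not called. Genes that mark Merkel cells, the touch cells of the epidermis, split. Krt8 and Krt18 were higher in paw, while Isl1, Chga, Sox2 and Rab3c, which neurons or glia also express, were at least 4-fold lower. Of the defining Merkel genes Atoh1 had 1 paw read and Krt20 was at 0.120, 0.185 and 0.412 CPM in paw, so neither was tested. Of 5 melanocyte genes tested, Dct (3.23, 2.53 and 3.71 CPM against 0.0894, 0.0483 and 0.0990 CPM) and Pmel were higher in paw, and Tyrp1 was lower (2.93, 2.65 and 3.71 CPM against 5.76, 10.9 and 8.22 CPM).

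Paw biopsies also held skeletal muscle. Of 33 muscle genes, 32 were higher in paw, all 32 at least 4-fold, with a median of 5.26. The sarcoplasmic calcium pump Atp2a1 stood at 4297, 4594 and 5811 CPM in paw and at 145, 235 and 5.94 CPM in DRG. Nebulin (Neb), which sets the length of thin filaments, had 1636, 2336 and 1840 CPM in paw and 14.6, 23.8 and 2.33 CPM in DRG. The fast myosins Myh1 and Myh2 differed most, with Myh1 at 1767, 3149 and 3156 CPM in paw and 15.6, 6.52 and 3.42 CPM in DRG, and Myh2 at 467, 1629 and 1114 CPM and 1.97, 9.70 and 0.396 CPM. Myoglobin (Mb) had 1534, 2264 and 2404 CPM in paw and 5.99, 19.4 and 2.08 CPM in DRG. The myosin of the fastest fibres, Myh4, was 2448, 443 and 925 CPM in paw and 149, 190 and 5.50 CPM in DRG, so paw 2 stood low. Its call (adjusted p = 0.0458) was lost in 4 of the 6 fits that left out a library. Mybpc2 was the member not called with all libraries, at 36.0, 30.8 and 57.8 CPM in paw and 20.6, 34.9 and 1.19 CPM in DRG. Summed over the list, muscle reads came to 29861, 36548 and 40635 CPM in paw and to 1128, 1758 and 181 CPM in DRG. In 30 of the 33 muscle genes DRG 1 and DRG 2 both stood above DRG 3, and the part of these reads in other results was not tested. Against DRG 3 alone, with its spread taken from the other tissues, 33 of the 33 members were higher in paw, Mybpc2 among them at a log2 fold change of 5.11 (adjusted p = 8.97e-05), and the list's median was 8.50. The fibre type genes Myh7, Myl2 and Tnnt1 of slow muscle were also highest in DRG 2, with Myh7 at 0.894, 13.9 and 0.297 CPM.

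Macrophage and mast cell genes were mostly higher in paw. Of 18 macrophage genes 14 were higher in paw (median 1.30), among them the mannose receptor Mrc1 at 48.2, 57.0 and 48.6 CPM against 15.9, 9.60 and 11.7 CPM. Folr2, a gene of tissue-resident macrophages, differed most, at 8.86, 11.4 and 9.72 CPM against 0.715, 0.579 and 0.347 CPM. The scavenger receptor Cd163 was higher at 27.8, 33.3 and 27.7 CPM against 9.65, 4.54 and 7.03 CPM, and so was Lyz2, lysozyme, at 204, 201 and 182 CPM against 81.5, 89.6 and 66.6 CPM, a call lost in 4 of the 6 fits that each left out 1 library. Aif1 was not called, at 1.38, 2.59 and 1.71 CPM and 1.61, 1.40 and 1.93 CPM, and Mertk, a receptor for engulfing dead cells, was lower at 13.2, 13.6 and 12.3 CPM against 30.7, 19.9 and 35.5 CPM. Cx3cr1, a receptor for a neuronal chemokine, was lower in paw at 1.53 CPM or less against 9.38, 5.70 and 6.49 CPM. Langerhans cells, the antigen-presenting cells of the epidermis, were represented by Cd207 at 11.6, 14.8 and 10.5 CPM in paw. It had 1 read in each DRG library, 259 times as much in paw (95% counting interval 88.1 to 1258). Epcam, which both Langerhans cells and epithelial cells carry, had 60.5, 57.3 and 62.5 CPM in paw and 0.134, 0.145 and 0.0495 CPM in DRG. Among antigen-presenting genes Cd74 was higher in paw at 216, 225 and 208 CPM against 150, 140 and 124 CPM, H2-Eb1 was not called (adjusted p = 0.114, or 0.000956 in the fit of the 6 paw and DRG libraries), and H2-DMa was lower at 9.88, 10.6 and 7.89 CPM against 39.6, 31.0 and 32.0 CPM. The call for Cd74 (adjusted p = 0.0443) was lost in all 6 fits that each left out 1 library, but not in the fit of the 6 paw and DRG libraries. That fit called 9 of the 13 tested Langerhans and dendritic genes higher in paw and 4 lower, against 7 and 4 with all libraries. Of 10 mast cell genes tested, 8 were higher in paw and none lower, and the chymase Mcpt4 had a median of 21.4 CPM in paw and of 2.99 CPM in DRG. Tpsab1, Mrgprb2 and Cma1, a tryptase, a receptor and a chymase of connective tissue mast cells, differed most, with Mrgprb2 at 2.39, 2.10 and 2.24 CPM against 0.223, 0.0965 and 0.248 CPM. Kit, the stem cell factor receptor that melanocytes and neurons also carry, was not called, at 102, 96.3 and 82.3 CPM and 94.8, 81.9 and 112 CPM. Genes of T and B cells were scarce in both tissues, with Cd3e at 0.309 CPM or less in every paw and DRG library. Of 7 tested, Cd5 and Ptprc were higher in paw and Cd79a lower, with Cd79a at 0 reads in paw. The call for Cd79a (adjusted p = 0.0487) was lost in all 6 fits with 1 library left out.

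Genes of neutrophils and red cells went the other way, with 8 of 12 at least 4-fold lower in paw and none higher in the fit of all 9 libraries. Ngp, a granule protein made in marrow neutrophils, had 0, 0.185 and 0.353 CPM in paw and 42.4, 98.6 and 31.8 CPM in DRG. Camp and Ltf, other granule proteins, had 14.4, 28.8 and 10.6 CPM and 32.0, 70.8 and 23.2 CPM in DRG and 0.294 CPM or less in each paw library. S100a9 had 2.30 CPM or less in paw and 65.6, 157 and 60.6 CPM in DRG. The chemokine receptor Cxcr2, which mature neutrophils carry, was not called at 6.94, 6.05 and 6.13 CPM in paw and 2.19, 5.12 and 2.97 CPM in DRG, and was called higher in paw in the fit of the 6 paw and DRG libraries (adjusted p = 0.0114). DRG 2 was the highest of the 3 DRG libraries for each of the 7 called neutrophil genes, and the summed list stood at 224, 490 and 188 CPM in DRG. With DRG 1, DRG 2 or any 1 paw library left out, 6 of the 12 genes were called lower in paw, while the fit of the 6 libraries called 10 of 11 lower and 1 higher, and the replicate block 10 of 12 lower.

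Interferon-stimulated genes were mostly lower in paw. Of 21 tested, 16 were lower in paw and none higher, 4 of them at least 4-fold, with a median of -1.39. Oasl2, an antiviral gene, stood at 2.16, 3.15 and 3.12 CPM in paw and at 51.6, 43.2 and 50.2 CPM in DRG. Ifit1, which binds viral RNA, had 2.10, 3.21 and 2.53 CPM against 19.9, 13.9 and 21.7 CPM, and Stat2 had 26.2 CPM or less in paw and 86.7 CPM or more in DRG. Ifi35 was not called. The master regulator Irf7 was not called, at 4.67, 5.62 and 9.36 CPM in paw and 6.93, 7.05 and 6.93 CPM in DRG. Of 21 chemokines and cytokines, 13 were higher in paw and 3 lower. Il18, an inflammasome cytokine kept ready in keratinocytes, had 102, 109 and 96.6 CPM in paw and 3.71, 2.99 and 3.02 CPM in DRG. Cxcl14, a chemokine of resting epithelium, had 73.0, 65.3 and 77.9 CPM in paw and 0.670, 1.45 and 0.594 CPM in DRG. Cxcl1, which draws neutrophils, was higher in paw at 0.838, 0.864 and 1.35 CPM against 0.0894, 0.0965 and 0.0495 CPM. Ccl11, eotaxin, was not called, at 14.2, 22.3 and 28.3 CPM and 25.2, 22.3 and 18.5 CPM. The 3 lower in paw were Ccl27a, Il16 and Cxcl10, the last an interferon-induced chemokine.

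On the neuronal side, the lists that define the sensory neuron were lower in paw with few exceptions. Of 31 channel genes, 30 were lower in paw and none higher, 27 of them at least 4-fold (median -6.44). Scn9a (Nav1.7), a threshold channel of nociceptors, had 198, 233 and 243 CPM in DRG and 0.0599, 0.309 and 0 CPM in paw. Trpv1, the capsaicin receptor, had 128, 139 and 129 CPM in DRG against 0.239, 0.370 and 0.294 CPM. Trpa1, the irritant receptor, had 37.2, 42.4 and 47.9 CPM in DRG and 0 reads in paw, at least 704-fold lower there against 3 reads over the paw group. Trpm8, the cold receptor, was 31.1, 8.78 and 43.0 CPM in DRG, with DRG 2 low. Kcna2, as these files count it, was the member that did not pass, at 15.0, 15.1 and 8.78 CPM in paw and 6.66, 4.73 and 12.1 CPM in DRG. The auxiliary subunit Cacna2d1, the target of gabapentin, differed little, at 87.9, 123 and 147 CPM in paw and 155, 167 and 168 CPM in DRG. Scn4b, a sodium channel beta subunit, was read at 154, 178 and 220 CPM in paw and 570, 664 and 643 CPM in DRG.

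Of 23 receptor genes of sensory neurons, 21 were lower in paw and 1, the prostaglandin receptor Ptger3, was higher, a call lost in 3 of the 6 fits with 1 library left out. The serotonin-gated channel Htr3a had 146, 212 and 167 CPM in DRG and 0 reads in paw, at least 2897-fold lower. Mrgprd, a marker of non-peptidergic endings in epidermis, had 174, 105 and 208 CPM in DRG against 0.120, 0.123 and 0.177 CPM. The cholecystokinin receptor Cckar had 26.2, 33.6 and 30.2 CPM in DRG and 1 read in paw, 1492 times as much in DRG (95% counting interval 267 to 58964). Gabbr1, a GABA receptor subunit, took the most reads of the list, at 549, 598 and 608 CPM in DRG and 24.7, 27.1 and 24.4 CPM in paw. The itch receptor Mrgpra3 had 0 reads in paw, as did Mrgprb4, Mrgprb5, Oprm1 and Htr1f. The bradykinin receptor Bdkrb2 was not called, at 5.27, 2.65 and 3.53 CPM in paw and 3.49, 3.62 and 2.97 CPM in DRG. Among 24 transcription factors of sensory neurons, 23 were lower in paw and none higher. Tlx2, Tlx3, Pou4f3 and Hmx1 had 0 reads in all paw libraries, which puts Tlx3 (33.6, 44.6 and 35.5 CPM in DRG) at least 629-fold lower. Prdm12, needed for pain neurons to form, stood at 186, 258 and 232 CPM in DRG and 0.0599, 0.247 and 0.118 CPM in paw. Ebf2 was the member not called, at 9.94, 10.3 and 13.9 CPM in paw and 8.29 ± 2.91 CPM (mean and SD, n = 3) in DRG. Runx1 and Runx3, which blood and skin cells also use, differed less, with Runx1 at 28.1, 30.6 and 28.7 CPM in paw and 73.8, 86.8 and 83.1 CPM in DRG. With genes at 0 reads set to their bounds, the medians of the receptor and factor lists were -5.57 and -5.26.

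Neuropeptide genes followed the neurons. Of 20 tested, 17 were lower in paw and 2 higher (median -5.29). Calca, which encodes the peptide CGRP, had 783, 941 and 910 CPM in DRG and 0.539, 0.432 and 0.236 CPM in paw. Tac1, the precursor of substance P, had 153, 202 and 183 CPM in DRG and 0.180, 0.185 and 0 CPM in paw. Adcyap1, the precursor of PACAP, and the granule proteins Scg2 and Chgb were also at least 4-fold lower. The 2 that were higher in paw were Cck and Penk. Cck, cholecystokinin, had 3.83, 5.49 and 6.42 CPM in paw and 0.179, 0.290 and 0.198 CPM in DRG. Penk, proenkephalin, had 16.3, 16.9 and 19.3 CPM in paw and 12.3, 15.9 and 14.4 CPM in DRG, and its call was lost in 4 of the 6 fits that left out a library.

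TGACGTCA, the letters of the cAMP response element, reads the same on both strands. It was in 4 of the 17 neuropeptide genes with a promoter in the table (23.5%), against 2.03% of all genes in it. Those genes were Sst, Scg2, Chgb and Cartpt. The same motifs were searched in every list, and the share here is among the higher ones. In the melanocyte list TGACGTCA was in 1 of 4 genes (25.0%). TGACCTCA, also searched, was in 1 of the 17 neuropeptide genes (5.88%) against 2.40% of all genes. A match describes these letters and is not a site in use. The 130 bases before the start are printed for 3 of them, with the element in capitals, and for Scn10a, the gene most apart in the DRG direction, which holds neither this element nor TATAAA or TGANTCA there.
Sst (GRCm38.p6, chr16:23890845-23890974, minus strand): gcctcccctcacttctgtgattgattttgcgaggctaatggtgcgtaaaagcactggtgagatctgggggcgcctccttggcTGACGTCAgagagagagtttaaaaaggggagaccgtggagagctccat
Scg2 (chr1:79440027-79440156, minus strand): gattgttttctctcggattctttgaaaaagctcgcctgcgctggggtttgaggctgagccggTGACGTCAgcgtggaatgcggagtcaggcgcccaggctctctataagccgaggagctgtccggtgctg
Chgb (chr2:132781512-132781641, plus strand): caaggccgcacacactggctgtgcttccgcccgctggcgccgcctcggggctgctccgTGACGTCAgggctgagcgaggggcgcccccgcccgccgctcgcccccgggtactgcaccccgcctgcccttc
Scn10a (chr9:119719033-119719162, minus strand): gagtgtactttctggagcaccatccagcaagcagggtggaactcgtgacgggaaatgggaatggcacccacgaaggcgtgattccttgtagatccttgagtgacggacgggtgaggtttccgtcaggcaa
The element starts 48 bases before the start in Sst, 68 in Scg2 and 72 in Chgb. Sst stood at 3.89, 5.16 and 4.31 CPM in DRG, Scg2 at 336, 405 and 381 CPM and Chgb at 122, 155 and 136 CPM, and each was under 1.2 CPM in all paw libraries.

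Every member of the axon and vesicle lists was called. All 22 axon cytoskeleton genes were at least 4-fold lower in paw, with a median of -7.11. Nefl, the light neurofilament subunit, had 4392, 5203 and 4739 CPM in DRG and 3.23, 2.53 and 4.89 CPM in paw. Prph, the filament of small sensory neurons, had 1372, 1772 and 1595 CPM in DRG and 2.69, 3.95 and 3.77 CPM in paw. The members closest to each other were Stmn4 and Dpysl3, and Thy1 with 56.5, 61.0 and 69.3 CPM in paw. All 27 genes of synaptic vesicles were also at least 4-fold lower in paw (median -6.66). Snap25, a membrane fusion protein, had 1525, 1897 and 1672 CPM in DRG and 4.61, 3.52 and 8.66 CPM in paw. The vesicular glutamate transporter Slc17a7, the calcium sensor Syt1 and the priming factor Cadps differed most, with Slc17a7 at 235, 317 and 251 CPM in DRG and 0.0599, 0.123 and 0.353 CPM in paw. Vamp2 and Vamp1, vesicle fusion proteins, were the most widely read in skin, with Vamp2 at 178, 157 and 153 CPM. Sv2c and Syt2 varied among the ganglia. Sv2c was 58.8, 5.50 and 138 CPM in DRG, and its call (adjusted p = 0.00226) was lost in limma-voom (adjusted p = 0.148).

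Glia of the nerve followed the neurons, but less far. Of 17 myelin genes, 16 were at least 4-fold lower in paw, with a median of -4.24. Pmp22 stood at 420, 420 and 480 CPM in paw and 7486, 5596 and 5927 CPM in DRG, and Prx, periaxin of Schwann cells, at 112, 117 and 133 CPM and 3332, 2439 and 2322 CPM. Nfasc, neurofascin of the node of Ranvier, differed most at 11.6, 11.6 and 11.4 CPM against 751, 490 and 671 CPM. Ugt8a, which makes a myelin lipid, was lower in paw too. Fa2h, which hydroxylates the fatty acids of both myelin and epidermis, was the member higher in paw, at 364, 367 and 392 CPM against 280, 202 and 216 CPM. Of 22 genes of Schwann cells and satellite glia, 19 were lower in paw and 1 higher (median -2.98). Fabp7, a satellite glia gene, had 169, 200 and 224 CPM in DRG and 0.239, 0.0617 and 0.353 CPM in paw. Sox10, the glial lineage factor, had 28.1, 31.7 and 34.5 CPM in paw against 386, 314 and 277 CPM. Kcnj10, the potassium channel of satellite glia, had 1.44, 1.36 and 3.59 CPM against 108, 113 and 113 CPM, and L1cam, an adhesion protein of axons and glia, 53.0, 43.4 and 40.4 CPM against 851, 855 and 933 CPM. Gja1, connexin 43, was the member higher in paw, at 618, 456 and 467 CPM against 34.3, 34.2 and 31.3 CPM. Erbb3 was not called, at 72.7, 55.8 and 52.8 CPM in paw and 151, 56.6 and 122 CPM in DRG. Summed over each list, paw held 5.43, 5.53 and 6.25% of the DRG level of myelin genes but 0.766, 0.798 and 0.926% of the DRG level of axon cytoskeleton genes. The myelin sum in paw, 1887, 1923 and 2174 CPM, included Fa2h at 364, 367 and 392 CPM, and the axon sum included Thy1. Such members raise these shares, so they are not a measure of glia or axons in paw.

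Genes that neurons raise after nerve injury did not form 1 group. Of 18 tested, 10 were lower in paw and 3 higher, and the count higher was 6 without DRG 1, 2 without paw 2 or DRG 2, 4 without paw 1, and 1 without paw 3 or DRG 3. Gal, the peptide galanin, had 17.2, 12.1 and 10.6 CPM in DRG and 2 reads in paw, 335 times as much in DRG (95% counting interval 92.3 to 2767). Gap43, a growth cone protein, had 176, 184 and 177 CPM in DRG and 1.20, 1.67 and 1.35 CPM in paw, and Serpina3n, an inhibitor of serine proteases, 204, 242 and 218 CPM and 38.9, 43.1 and 48.8 CPM. Jun was not called, at 95.4, 123 and 159 CPM in paw and 118, 99.8 and 111 CPM in DRG. Atf3, the injury-induced factor, was not called, at 32.0, 39.3 and 55.1 CPM in paw and 42.6, 13.2 and 18.4 CPM in DRG, so that DRG 1 stood above the other DRG libraries. Without DRG 1 it was called higher in paw (log2 fold change 1.41, adjusted p = 0.00585, against 0.77 and 0.163 with all libraries). Chosen after their values were seen, other members with DRG 1 highest of the ganglia were Sprr1a (14.0, 0.965 and 3.07 CPM), Ecel1 (10.2, 1.11 and 2.38 CPM), Cckbr (3.08, 0.531 and 0.495 CPM) and Nts (13.5, 6.52 and 5.35 CPM). Gal and Jun were highest in DRG 1 too, while Gap43, Serpina3n and Bdnf were not. Summed over the list, the DRG libraries stood at 751, 682 and 673 CPM. Serpina3n, Gap43 and Jun took most of these reads, so the sums say little about the scarcer members. Sprr1a, which is also an envelope gene of keratinocytes, was higher in paw at 50.1, 30.1 and 52.9 CPM, and its call (adjusted p = 0.0286) was lost in 3 of the 6 fits that left out a library. No control without the drugs bears on these levels here.

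Signals that skin makes for its nerve endings were compared with the receptors that read them. Of 34 tested signals, 25 were higher in paw and 7 lower, with a median of 1.22, while of 44 receptors 15 were higher and 24 lower, with a median of -0.92. The neurotrophins differed in size. Ntf3 stood at 4.97, 3.83 and 4.53 CPM against 0.715, 1.11 and 0.743 CPM. Ntf5, a ligand of Ntrk2, had 2.93, 3.58 and 4.42 CPM in paw and 3 reads in all of DRG, 77.0 times as much in paw (95% counting interval 25.9 to 377). Bdnf, the other ligand of Ntrk2 and one that sensory neurons make, went the other way, at 9.82, 6.73 and 10.7 CPM in paw and 26.9, 28.1 and 31.5 CPM in DRG.

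The receptors Ntrk2 and Ntrk3 were higher in DRG, with paw against DRG values for Ntrk2 of 56.0, 47.0 and 52.0 CPM against 172, 143 and 192 CPM, and for Ntrk3 of 11.3, 8.58 and 9.72 CPM against 34.5, 28.6 and 37.9 CPM. Ngfr, a receptor that the neurotrophins share, had 726, 878 and 785 CPM in DRG and 7.18, 9.50 and 10.4 CPM in paw. The GDNF family showed the same arrangement. Gdnf (2.69, 3.33 and 2.83 CPM) and Nrtn (4.73, 8.70 and 8.19 CPM) were at least 4-fold higher in paw, where DRG had 0.223, 0.386 and 0.396 CPM and 0.223, 0.386 and 0.198 CPM. Their receptor Ret was lower in paw, at 14.5, 11.8 and 13.4 CPM against 840, 852 and 955 CPM, and so were Gfra1, Gfra2, Gfra3 and Gfra4. Artn, the ligand of Gfra3, was close to its floor, and its call (adjusted p = 0.0455) was lost in 4 of the 6 fits that left out a library.

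Among guidance cues, Sema3a, a repellent of sensory axons, had 7.18, 8.46 and 7.19 CPM in paw and 0.0894, 0.145 and 0.0990 CPM in DRG. Its receptor part Plxna4 was lower in paw, at 9.66 ± 1.18 CPM (mean and SD, n = 3) against 130, 104 and 148 CPM in DRG. Slit2 was lower in paw and Slit3 higher, while the receptor Robo2 had 13.0, 11.5 and 9.95 CPM in paw and 138, 132 and 174 CPM in DRG. Nrg1, the axonal signal to Schwann cells, was lower in paw, at 1.44, 0.987 and 0.648 CPM against 38.3, 36.6 and 43.8 CPM. Edn1, endothelin, was higher in paw at 20.7, 16.7 and 18.7 CPM against 3.26, 4.44 and 4.26 CPM, and its receptor Ednrb was lower at 14.8, 14.9 and 16.0 CPM against 96.3, 91.2 and 106 CPM.

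Cytokine signals split by pair. Il1a, an alarm cytokine stored in keratinocytes, had 22.3, 19.8 and 20.7 CPM in paw and 0 reads in DRG, at least 442-fold higher. Its receptor Il1r1 was also higher in paw, at 51.4, 55.8 and 54.8 CPM against 13.6, 10.5 and 12.9 CPM. Tslp, an itch cytokine of keratinocytes, had 1.38, 2.10 and 1.65 CPM in paw against 0.313, 0.145 and 0.149 CPM, and its receptor chain Crlf2 was not called. Il31ra, which together with Osmr binds the itch cytokine IL-31, was lower in paw at 0.718, 0.741 and 0.236 CPM against 24.6, 14.8 and 28.8 CPM, while the ligand gene Il31 had 0 reads in every paw and DRG library. Il33, an alarm cytokine, and Lif were lower in paw, as was Lifr at 93.7, 97.8 and 93.5 CPM against 473, 538 and 544 CPM. Il13ra1, a chain of the receptor for IL-13, was higher in paw at 190, 161 and 144 CPM against 12.3, 10.7 and 12.7 CPM. Tnfrsf1a, the main receptor for tumor necrosis factor, was higher as well, at 152, 153 and 157 CPM against 39.8, 45.7 and 39.9 CPM.

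**Figure D3:**
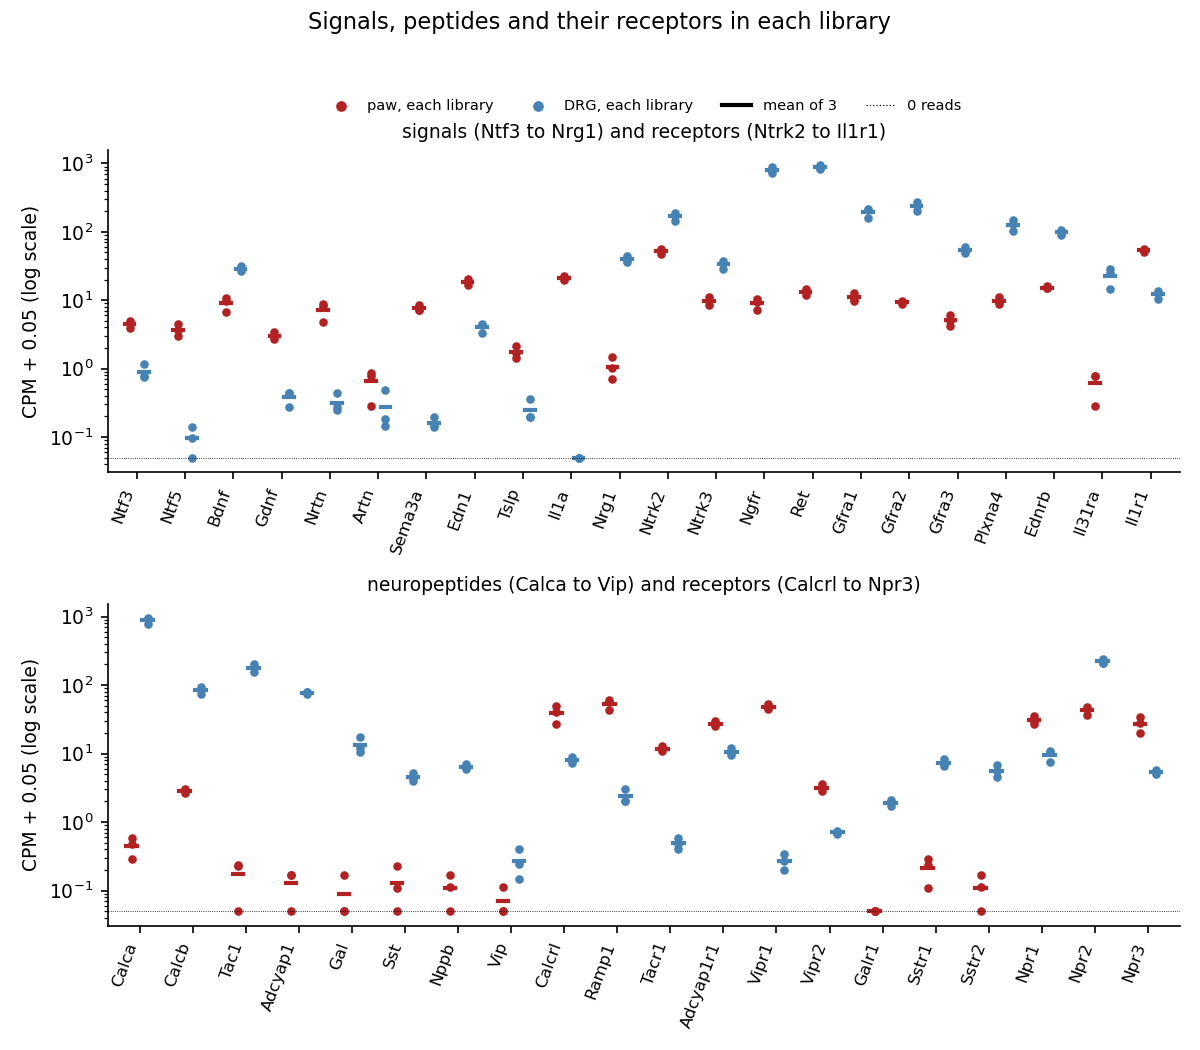
Level in each library (points) and the mean of 3 (bars) for signals, neuropeptides and their receptors, in CPM plus 0.05 on a log scale, paw in red and DRG in blue. Ngfr and Ret lie at 726 CPM or more in every DRG library and at 14.5 CPM or less in every paw library, while Sema3a, Il1a, Tacr1 and Vipr1 lie higher in paw.

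Receptors for the peptides that sensory neurons release were divided. Of 20 tested, 11 were higher in paw and 8 lower (median 0.96). The CGRP receptor chain Calcrl had 27.4, 39.9 and 49.8 CPM in paw and 8.94, 7.77 and 7.28 CPM in DRG, and its partner Ramp1 had 43.6, 57.5 and 59.7 CPM against 2.99, 1.98 and 1.98 CPM. Tacr1, the substance P receptor, stood at 10.8, 12.8 and 11.8 CPM in paw and at 0.357, 0.434 and 0.545 CPM in DRG. Vipr1, a receptor for VIP and PACAP, had the largest fitted difference among those higher in paw, at 53.4, 45.7 and 44.5 CPM against 0.223, 0.290 and 0.149 CPM. The receptors for somatostatin Sstr1 and Sstr2 and the galanin receptor Galr1 were lower in paw, Sstr1 at 0.0599, 0.185 and 0.236 CPM against 6.57, 8.16 and 7.03 CPM. Galr1, with 0 reads in paw, was at least 30.7-fold lower there. Of the natriuretic peptide receptors, Npr1 and Npr3 were higher in paw and Npr2 lower, Npr2 at 36.5, 44.6 and 47.2 CPM against 211, 239 and 212 CPM.

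Genes that record position along the body differed in both directions. Hox genes lie in 4 clusters whose higher numbers are used toward the tail and, in the limb, toward the digits, and cells keep much of that pattern in the adult. Of 44 tested position genes, 13 were higher in paw and 26 lower, with a median of -1.0. Several genes of the distal end were higher in paw, while Hoxd11 was lower. Hoxd13 had 12.9, 12.5 and 11.1 CPM in paw and 0 reads in DRG, at least 257-fold higher, and Hoxa13 had 3.95, 7.41 and 7.83 CPM and 0 reads, at least 135-fold higher. Hoxc13, which hair and nail use as well, had 9.94, 8.15 and 6.54 CPM in paw and 1 read in DRG, 519 times as much in paw (95% counting interval 92.6 to 20545). Hoxc12, Hoxa11 and Hoxc11 were also at least 4-fold higher. Hoxb13 was read at 0.118 CPM or less in each of these libraries and was not called.

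The more anterior HoxB genes were higher in DRG. Hoxb2 to Hoxb9 were each lower in paw, with Hoxb5 at 1.08, 1.23 and 1.59 CPM against 16.0, 17.1 and 16.2 CPM. Hoxd1, which is used in pain neurons, had the largest fitted difference among the genes lower in paw, at 0.0599, 0.185 and 0 CPM in paw and 15.1, 22.1 and 20.5 CPM in DRG. Hoxd3 and Hoxd11 were lower in paw as well, at least 4-fold. Hoxa3, Hoxa6, Hoxa7 and Hoxc9 were not called. Hoxa9, one of the members higher in paw, had 55.4, 45.7 and 37.2 CPM in paw and 24.5, 27.7 and 25.0 CPM in DRG. The hind limb factor Tbx4 stood at 5.69, 7.10 and 9.54 CPM in paw and 0.268, 0.386 and 0.198 CPM in DRG. Tbx5, the forelimb factor, was read as well, at 1.02, 1.05 and 1.35 CPM in paw and 0 reads in DRG, at least 24.1-fold higher. En1, a gene of the ventral limb surface, stood at 17.4, 15.8 and 17.7 CPM in paw and 0, 0.145 and 0.0495 CPM in DRG. Lmx1b, its dorsal counterpart, had 1 read in paw.

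**Figure D4:**
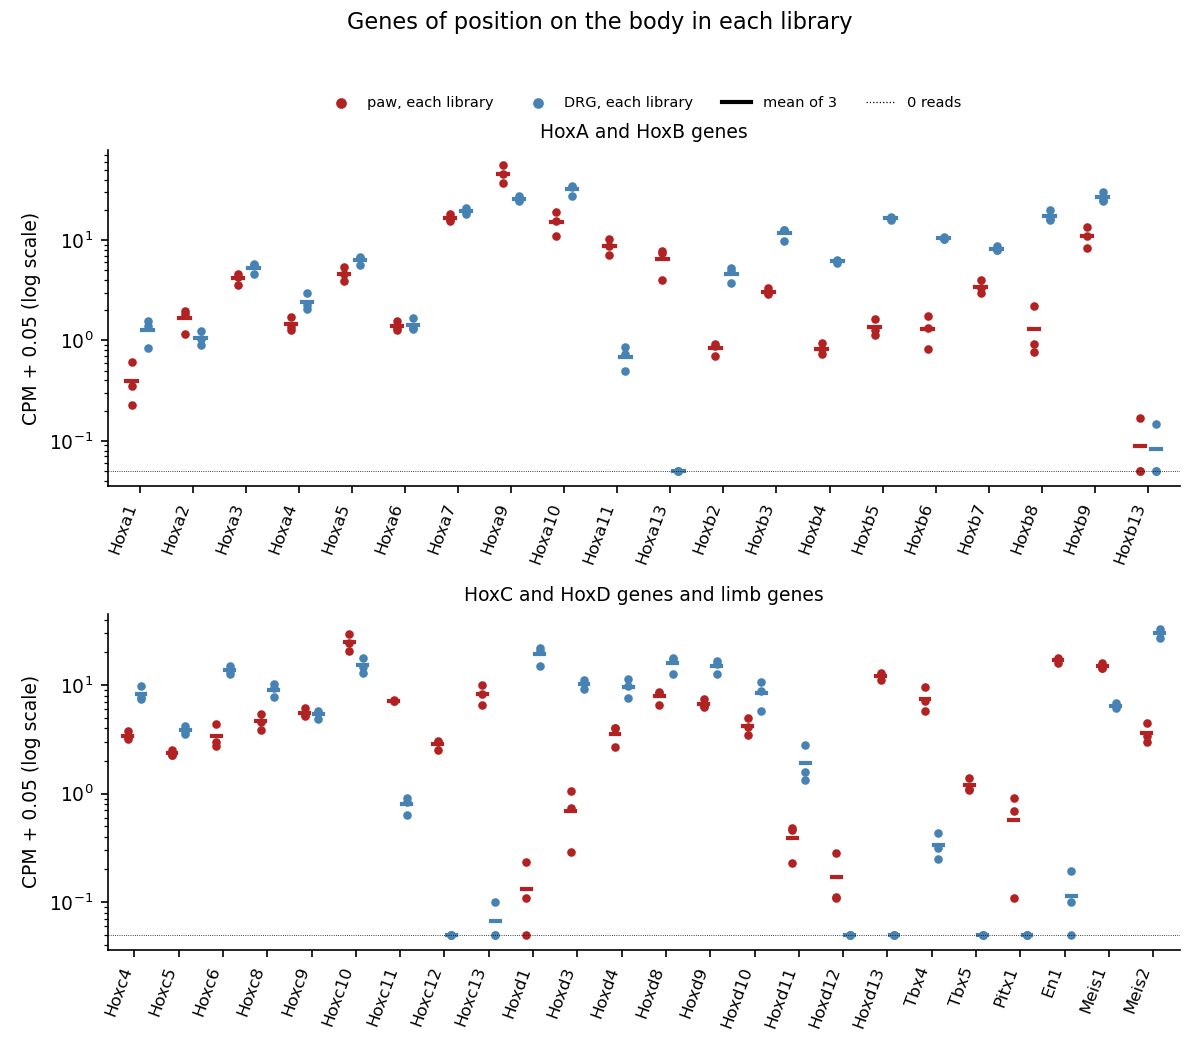
Level in each library (points) and the mean of 3 (bars) of the Hox genes in the list and of 6 other position genes, in CPM plus 0.05 on a log scale, paw in red and DRG in blue, with 0 reads on the dotted line. Hoxa13, Hoxc12 and Hoxd13 have 0 reads in DRG, and Hoxb2 to Hoxb9 lie higher in DRG.

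Genes of the pathway of the antagonist's target that passed the filter differed by less than 4-fold. Of 21 tested genes, 11 were higher in paw and 3 lower, none at least 4-fold, with a median of 0.41. The receptor Ltbr had 38.1, 45.1 and 52.0 CPM in paw and 32.7, 33.1 and 28.2 CPM in DRG (log2 fold change 0.53 ± 0.12 SE, adjusted p = 0.00172). Its ligand genes were near the floor. Ltb had 0.239, 0.370 and 0.589 CPM in paw and 0.626, 0.434 and 0.495 CPM in DRG and was not called, and Lta and Tnfsf14 were not tested. The chemokine Cxcl13, which did not pass the filter, had 42 reads in paw and 3 in DRG, a 17.8-fold ratio (95% counting interval 5.68 to 89.6). The kinase Map3k14 and the factor Nfkb2 were not called, Nfkb2 at 19.1, 18.8 and 21.4 CPM in paw and 19.8, 14.7 and 16.5 CPM in DRG. The inhibitor Nfkbia and Birc3, which the pathway induces, were higher in paw, Nfkbia at 123, 99.9 and 104 CPM against 31.9, 38.9 and 29.1 CPM. Traf3, which holds the pathway back, was lower in paw at 33.3, 37.0 and 34.5 CPM against 75.4, 55.2 and 82.3 CPM.

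Tubulins, the target of paclitaxel, were used in different forms. Of 16 tested, 10 were lower in paw and 4 higher (median -1.36). The neuronal form Tubb3 had 2417, 2805 and 2658 CPM in DRG and 40.5, 29.3 and 40.8 CPM in paw, and Tubb4 had 711, 990 and 790 CPM against 4.19, 4.63 and 8.42 CPM. Tuba1c, Tuba8, Tuba4a and Tubb6 were higher in paw, with Tuba8 at 142, 129 and 151 CPM against 5.76, 6.13 and 4.90 CPM. The centrosomal form Tubg2 was lower in paw at 1.74, 1.85 and 1.41 CPM against 28.2, 41.3 and 34.7 CPM, and Tubd1 was not called. Of 13 tested transporters and enzymes of drug handling, 5 were higher in paw and 6 lower. The efflux pump genes split, Abcb1a lower in paw at 17.5, 22.2 and 21.9 CPM against 37.5, 27.5 and 35.7 CPM, and its paralog Abcb1b higher at 10.4, 12.0 and 10.8 CPM against 2.99, 2.37 and 2.87 CPM. The efflux pump Abcc1 was higher in paw at 191, 188 and 153 CPM against 31.6, 20.8 and 32.6 CPM. Slco1a4 was lower at 1.26, 1.36 and 1.24 CPM against 40.8, 40.4 and 35.8 CPM. Slc22a2 and Abcc5 were lower as well, with Abcc5 at 70.5, 71.2 and 70.2 CPM against 293, 231 and 340 CPM, and Slco3a1 was not called.

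Genes of dividing cells were mostly higher in paw. Of 25 cell cycle genes, 23 were higher in paw and 1 lower, with a median of 2.96. Mki67, carried by dividing cells, had 178, 158 and 157 CPM in paw and 3.71, 4.54 and 2.48 CPM in DRG. Ccnb1, the mitotic cyclin, and Top2a, which untangles DNA, were at least 4-fold higher, and Ccnd1, which takes cells into the cycle, had 233, 197 and 192 CPM against 85.1, 73.5 and 81.0 CPM. Ccne1 was the member lower in paw, at 3.59 CPM or less against 9.88 CPM or more, and Aurka was not called. In energy metabolism the median was 0.00, with 14 of 31 higher in paw and 13 lower, and forms of the same enzyme went opposite ways. Enolase Eno2, the neuronal form, was 823, 1087 and 883 CPM in DRG and 5.45, 7.41 and 9.60 CPM in paw, while the muscle form Eno3 was 869, 968 and 1085 CPM in paw and 33.0, 52.2 and 12.5 CPM in DRG. The creatine kinases Ckb and Ckm and the glucose carriers Slc2a3 and Slc2a4 were opposed in the same way, Slc2a3 at 3.29, 3.27 and 3.53 CPM in paw against 107, 105 and 105 CPM in DRG. Lactate dehydrogenase Ldha was higher in paw (822, 712 and 744 CPM against 249, 301 and 274 CPM) and Ldhb lower (30.4, 35.7 and 40.9 CPM against 221, 240 and 215 CPM). Hexokinase Hk2 was at least 4-fold higher in paw, at 184, 186 and 161 CPM against 8.49, 7.96 and 7.72 CPM. The glucose carrier Slc2a1 was not called, at 121, 109 and 107 CPM in paw and 128, 115 and 93.4 CPM in DRG. Ckmt2 and Cox8b, mitochondrial forms of muscle, were higher in paw and highest in DRG 2 among the ganglia, with Ckmt2 at 120, 118 and 142 CPM against 2.14, 6.52 and 0.0495 CPM.

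Lists that mark each tissue were read in the other at low levels. Summed over the keratin list, the DRG libraries held 0.0462, 0.0309 and 0.0619% of the mean paw level, and for the envelope list 0.0967, 0.0884 and 0.117%. In the other direction paw held 1.52, 1.60 and 1.80% of the mean DRG level of neuropeptides and 3.77, 3.56 and 3.56% of that of synaptic vesicle genes. Penk and Cck, both called higher in paw, made up most of that neuropeptide sum, and Vamp2 a large part of the vesicle sum. These shares are therefore not a measure of neuronal RNA in paw. Fitted fold changes past 10 on the log2 scale rest on low levels in the other tissue. Whether these reads came from cells of the tissue or from RNA of another sample was not tested.

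Within a tissue, the 3 libraries were close for most genes. Among 8136 genes with a mean of at least 20 CPM in paw, the highest library was a median of 1.16 times the lowest, and 8 genes were over 3-fold. Among 8115 such genes in DRG, the median was 1.18 and 40 genes were over 3-fold. The 5 widest in DRG were Atp2a1, Myh4, Tnnt3, Acta1 and Sv2c, the first 4 of them muscle genes. In paw they were Zmynd17, Defb8, Myh4, Clec3a and Chad. Zmynd17 was 19.4, 98.4 and 132 CPM in paw. The defensin Defb8 was 30.4, 28.0 and 4.65 CPM in paw and had 0 reads in DRG. Clec3a and Chad, genes of cartilage and tendon, were lowest in paw 1, with Chad at 15.3, 66.2 and 40.2 CPM.

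DRG 2 also differed from the other ganglia with transcript length. For genes with at least 20 CPM in DRG, in the longest of 4 length classes its level was a median of -0.17 on the log2 scale against the mean of the other 2, and in the shortest class 0.16. DRG 1 and DRG 3 ran from -0.11 to 0.05 and from -0.05 to 0.12 over the same classes, and the paw libraries stayed between -0.09 and 0.10. The low values of Sv2c, Trpm8 and Dpysl3 in DRG 2 stood beside this, and its part in them was not tested.

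**Figure D5:**
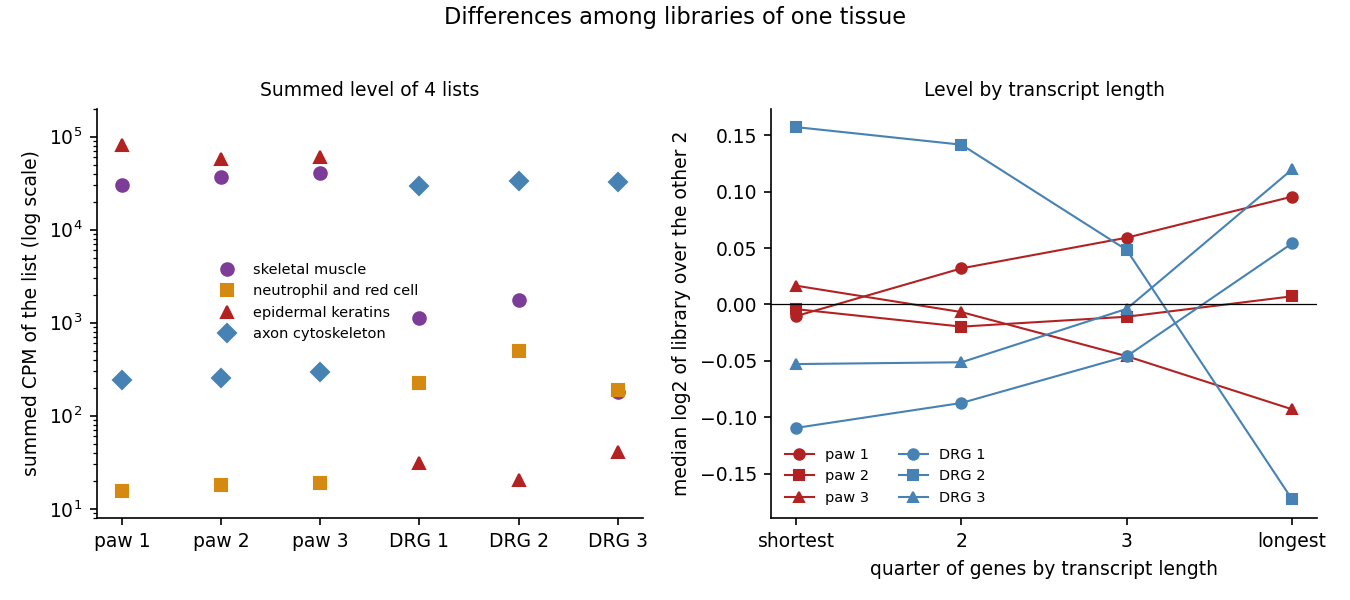
Left, the summed CPM (log scale) of 4 gene lists in each paw and DRG library, where the muscle list stands at 1758 CPM in DRG 2 and 181 in DRG 3. Right, the median log2 ratio of each library to the mean of the other 2 of its tissue, for genes with at least 20 CPM there, in 4 classes of transcript length; DRG 2 runs from 0.16 to -0.17.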

How the data were processed

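Poly(A) RNA of 3 hind paw, 3 DRG and 3 spinal cord samples was read in single-end 50 bp runs from about 500 ng of total RNA. The authors deposited 1 table of read counts per gene symbol for each library, per the file headers and values unnormalized. The submitters' processing notes name bcl2fastq, TopHat2, HTSeq and mm9. Tool versions, gene models and strand handling: not given in the sources used here. Overlapping and antisense genes are therefore uncertain. Reads in no gene were left out of library sizes, and their share is in the report.

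The counts of all 9 libraries were fitted together with edgeR 4.0.16 (R 4.3.3, TMM scaling, filterByExpr by tissue, robust quasi-likelihood test), and paw was compared with DRG. P-values were adjusted by Benjamini-Hochberg over all 16091 genes tested. A gene was called at an adjusted p under 0.05. Floors are 3 reads over a group, and counting intervals are 95% exact binomial ones that cover counting error only. Replicate pairs all differed by more than sampling noise. In simulated counts of 15245 genes, paw libraries were drawn at the DRG levels with 200 genes changed. Of these changes, 41.8% of 1.5-fold, 77.6% of 2-fold and 90.9% of 4-fold ones were recovered, and 12 of 152 calls were false. Most genes differed between the real tissues, so these shares were not measured under the conditions of the comparison. Transcript lengths came from GENCODE M21 and matched 87.4% of tested genes.

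The comparison and the gene lists were chosen with earlier results of these data known. Named genes were the 10 largest called differences in each direction, the 5 with the most reads, up to 6 members per list (largest, most abundant and contrary ones), the members of the signal, receptor, position and lymphotoxin lists, pairs of enzyme and tubulin forms, and the 5 widest spreads. Of 335 genes named, 266 follow this rule and the other 69 were chosen after their values were seen. Some members that the rule names are not reported here, while list counts and medians cover all members. The 15 alternatives tried were 3 other scalings, no filter, DESeq2 1.42.0, limma-voom (limma 3.58.1), the 6 libraries alone, a replicate block, and fits leaving out libraries.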

Additional observations from a re-analysis of the deposited data

How the results depend on the processing

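With each paw or DRG library left out in turn, 6169 to 6398 genes were called higher in paw and 6268 to 6428 lower, and 2366 to 2453 and 2622 to 2731 at least 4-fold. Without both DRG 1 and DRG 2, where DRG 3 alone stands for DRG and is assumed to vary like the other tissues, 5712 and 5952 were called. DESeq2 called 6429 and 6430, limma-voom 6415 and 6527, and the fit of the 6 libraries alone 6417 and 6361. Upper quartile scaling, which moved the median log2 fold change of all genes to 0.10, called 6882 and 6087, so that 53.1% of calls were higher in paw against 49.3%. With the replicate block, 6368 genes were called higher and 6538 lower. The correlations of same-numbered paw and DRG deviations were -0.00501, -0.0257 and -0.13, and those of differently numbered ones lay between -0.112 and 0.143. With 3 libraries a tissue they cannot decide whether the samples were paired, and the labels do not say that a number marks a mouse. Of 328 named genes tested, 320 had a value in all 15 alternatives, and 295 of these kept their call or lack of one in each; 6 of the other 8 did in those that tested them. In all, 14 lost a call in at least 1, 13 gained one, and none reversed while called. Among those lost against DRG 3 alone, by edgeR's quasi-likelihood test, were Cd74 (adjusted p = 0.143), Lyz2 (0.109), Ptprc (0.104) and Cd79a (0.138), whose log2 fold changes of 0.65, 1.31, 1.01 and -6.46 became 0.79, 1.55, 1.10 and -6.59. Calls were also lost for Ptger3 (0.392) and Il33 (0.131), whose log2 fold changes moved from 0.54 to 0.29 and from -0.63 to -0.34. In the lists, 4 melanocyte genes in place of 2 were higher without the filter, and 1 T and B cell gene in place of 2 without DRG 1 and DRG 2. The median log2 fold change of the muscle list was 6.08 without DRG 2 and that of the sweat gland list 4.74 without DRG 1, against 5.26 and 4.13. Depth limits genes with a few reads in 1 tissue, whose fitted folds depend on the prior count. The cause of these changes was not tested.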

Other observations

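The spinal cord libraries, which entered no comparison above, also held traces of skin genes. Summed keratin reads there came to 0.0582, 0.0585 and 0.0470% of the mean paw level, beside 0.0462, 0.0309 and 0.0619% in DRG, and envelope genes to 0.150, 0.149 and 0.144%. The neutrophil and red cell list stood at 973, 244 and 297 CPM in spinal cord, against 15.5, 18.2 and 19.0 CPM in paw. Hoxb13, near its floor in paw and DRG, was at 25.4, 10.1 and 19.0 CPM in spinal cord.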
